A study of Mus musculus with 6 samples.

Results

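The glucocorticoid receptor gene Nr3c1, 3 genes that glucocorticoids induce (Tsc22d3, Fkbp5 and Zbtb16) and the metallothionein genes Mt1 and Mt2 were followed in mouse kidney cortex. They were taken by gene symbol from the table of read counts, in which all 6 were found among 24421 genes, and all 6 were among the 13977 genes with enough reads to be tested. RNA-seq libraries came from the renal cortex of mice that express I-PpoI, an endonuclease that makes DNA double-strand breaks, in the epithelial cells of the proximal tubule (PT-I-PpoI, titled PT-I_Ppo-1 in the labels, 3 libraries) and from wild type mice (titled Wild-Type, 3 libraries). The promoter that drives I-PpoI, and the strain, sex, age and treatment of the mice, are not given in the sources used here, nor do they say that the libraries stand for separate mice. The p-values therefore measure the spread among these 6 libraries and no more. Library names take a form with a hyphen before the last number (PT-I-PpoI replicate 3 with wild type replicates 2 and 3) or a plain form without it (PT-I-PpoI replicates 1 and 2 with wild type replicate 1). What the forms stand for is not given in the sources used here, and each member is given both by genotype and by name form.

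Glucocorticoids, in mice mainly corticosterone, enter cells and bind the receptor that Nr3c1 encodes, which then moves to the nucleus and binds glucocorticoid response elements in DNA. Their release from the adrenal gland follows a daily rhythm and rises with stress. Metallothioneins are small cysteine-rich proteins that bind zinc, copper and cadmium. Their genes are induced by metals through the factor Mtf1, which binds metal response elements, and also by glucocorticoids, and the proximal tubule is a known site of metallothionein action against cadmium.

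Libraries held 13.6 M to 20.9 M counted read pairs. Along the first principal component of all tested genes, which held 43.1% of the variance, libraries with hyphenated names lay between 11.84 and 21.52 and those with plain names between -30.15 and -0.54. Markers of cortex were present, with 9 of 9 proximal tubule and 4 of 4 podocyte markers tested. Markers of the thick ascending limb, collecting duct, inner medulla and macrophages had higher sums in PT-I-PpoI, with no overlap. Summed over their lists, thick ascending limb markers were at 6123 to 6310 CPM (read counts relative to library size, scaled by TMM factors) in PT-I-PpoI libraries and at 4234 to 4741 CPM in wild type (1 of 6 markers passed). Collecting duct markers summed to 897.6 to 1072 CPM in PT-I-PpoI libraries and to 703.7 to 737 CPM in wild type (1 of 10 passed). Inner medulla markers summed to 208.6 to 267.4 CPM in PT-I-PpoI libraries and to 74.6 to 139.4 CPM in wild type (0 of 3 tested passed), and of that list Akr1b3 was at 0 in every library. Macrophage markers summed to 86.0 to 91.0 CPM in PT-I-PpoI libraries and to 72.8 to 83.5 CPM in wild type (0 of 4 passed). Read singly, all 4 macrophage markers (Adgre1, Cd68, Csf1r and C1qa) overlapped between the genotypes, so the separation holds for their sum alone. Csf1r, the largest part of that sum, was lower in PT-I-PpoI replicate 3 (54.43 CPM) than in wild type replicate 1 (54.75 CPM). Distal convoluted tubule markers overlapped, at 1083 to 1325 CPM in PT-I-PpoI libraries and 1227 to 1559 CPM in wild type ones. Proximal tubule markers overlapped too, at 7527 to 11410 CPM in PT-I-PpoI libraries and 10140 to 13690 CPM in wild type ones. In whole tissue fewer cells of a type and less RNA per cell cannot be told apart.

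Per kilobase of exon, the members differed widely in mean level over the 6 libraries. Mt1 was highest at 194.1 ± 35.7 CPM per kilobase (SD, n = 6), followed by Mt2 at 76.3 ± 10.1, Fkbp5 at 30.3 ± 6.49, Tsc22d3 at 19.1 ± 7.88, Nr3c1 at 8.91 ± 1.116 and Zbtb16 at 1.86 ± 0.68 CPM per kilobase. Neighbours in that order did not overlap between libraries for Mt1 and Mt2, for Mt2 and Fkbp5, and for Nr3c1 and Zbtb16. Fkbp5 (20.8 to 40.4 CPM per kilobase) and Tsc22d3 (9.75 to 29.4) overlapped, as did Tsc22d3 and Nr3c1 (7.08 to 10.1). No exon of a member overlapped that of another gene in the table, so the lack of a strand setting in the counting does not mix them with an annotated antisense gene.

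**Figure D1:**
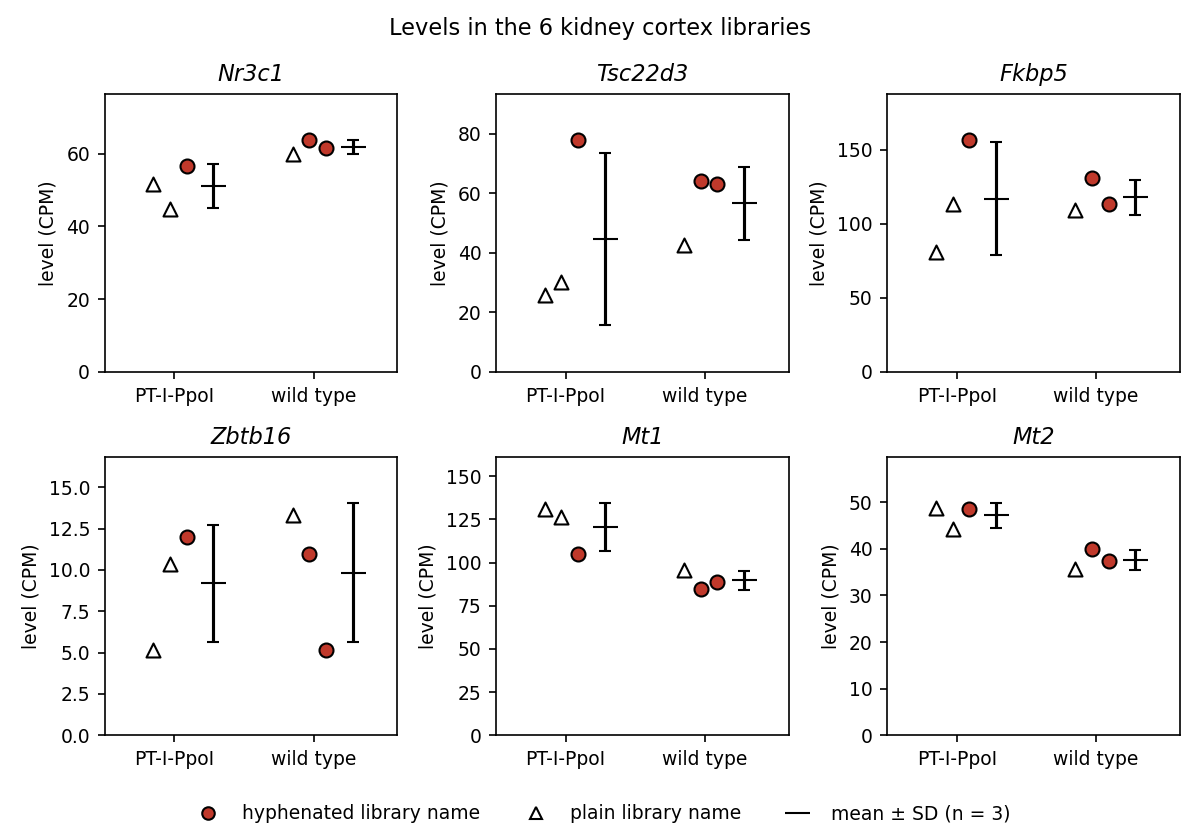
Level of each member in CPM (vertical axes, from 0) in PT-I-PpoI and wild type libraries, with filled circles for hyphenated and open triangles for plain library names, and bars for the mean ± SD of 3 libraries. Mt1 and Mt2 were higher and Nr3c1 lower in all 3 PT-I-PpoI libraries, whereas Tsc22d3 was higher in all 3 libraries with hyphenated names.

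Between the genotypes, Mt1 and Mt2 were higher and Nr3c1 was lower in all 3 PT-I-PpoI libraries than in any wild type library, but none of the 6 members passed the test over all genes. By the quasi-likelihood test of edgeR, with p adjusted by Benjamini-Hochberg and a threshold of 0.05, 0 of 6 members passed, where 0.136% of all tested genes did, all of them higher. At an unadjusted p under 0.05 there were 3 of 6 members, against 12% of all tested genes. DESeq2 called 1 member, Mt1, where it called 133 genes higher and 61 lower among the 13977 tested. The 3 members whose groups did not overlap stand beside 17% of all tested genes (2 higher beside 9.23%, 1 lower beside 7.74%).

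Between the name forms, with genotype kept as a term, Tsc22d3 was the 1 member of 6 that passed, and it was higher in libraries with hyphenated names. Of all tested genes 3.06% passed in this comparison (1.77% higher, 1.29% lower). The balance of directions turned with the scaling, from 248 higher and 180 lower genes with TMM factors to 184 higher and 218 lower with upper-quartile factors, and Tsc22d3 passed with both. Tsc22d3 was also the 1 member whose levels did not overlap between the forms, where 25.5% of all tested genes did not (12.3% higher, 13.1% lower). Both comparisons use the same 6 libraries.

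Nr3c1 (chromosome 18, 39410545 to 39487245, minus strand, mm10) encodes the receptor itself. It was at 51.6, 44.8 and 56.7 CPM in PT-I-PpoI and at 59.9, 63.8 and 61.5 CPM in wild type, in replicate order. The groups did not overlap, and the PT-I-PpoI libraries spread more widely than the wild type ones. The log2 fold change was -0.27 ± 0.10 (SE), a level 0.827 times that of wild type (edgeR adjusted p = 0.342). Within hyphenated names the log2 difference was -0.14, and within plain names -0.32. Between the forms Nr3c1 was at 60.6 ± 3.60 CPM with hyphenated and 52.1 ± 7.57 CPM with plain names (SD, n = 3 each), a log2 difference of 0.15 ± 0.08 (edgeR adjusted p = 0.385). The marker sums of the thick ascending limb, collecting duct and inner medulla, given above, moved with genotype without overlap too. So did the macrophage sum, although each macrophage marker overlapped when read singly. Their part in the Nr3c1 difference was not tested.

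Tsc22d3 (chromosome X, 140539529 to 140600522, minus strand, mm10) encodes GILZ, a leucine zipper protein that glucocorticoids induce and that restrains inflammatory transcription factors. It was at 77.9, 64.2 and 63.2 CPM in the libraries with hyphenated names (PT-I-PpoI replicate 3 with wild type replicates 2 and 3) and at 25.8, 30.3 and 42.5 CPM in those with plain names (PT-I-PpoI replicates 1 and 2 with wild type replicate 1). Both the highest and the lowest of the 6 levels were in PT-I-PpoI, 3.02-fold apart. With genotype as a term, Tsc22d3 was 2.03-fold higher in hyphenated names (log2 difference 1.02 ± 0.17, SE, edgeR adjusted p = 0.0176). The log2 difference was 0.59 without PT-I-PpoI replicate 3 and 1.47 without wild type replicate 1. In each of these fits only 1 genotype holds both name forms, with a single library in one of them. Proximal tubule markers moved with the name form too, with sums of 11410 to 13690 CPM for hyphenated and 7527 to 10140 CPM for plain names and 4 of 9 markers called higher. Their part in the Tsc22d3 difference was not tested.

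The difference in Tsc22d3 between the forms was larger in PT-I-PpoI than in wild type, at 1.48 within PT-I-PpoI and 0.58 within wild type on the log2 scale. An interaction term in the same test, added after the values were seen, gave 0.89 ± 0.15 for PT-I-PpoI minus wild type (edgeR adjusted p = 0.0355, where 0.687% of all tested genes passed). PT-I-PpoI replicate 3 is the only hyphenated PT-I-PpoI library and wild type replicate 1 the only plain wild type library, so each of these values rests on a single library at one end. Between the genotypes Tsc22d3 averaged 44.7 ± 28.9 CPM in PT-I-PpoI libraries and 56.6 ± 12.2 CPM in wild type libraries (SD, n = 3 each), with overlapping levels and a log2 difference of -0.35 ± 0.38 (edgeR adjusted p = 0.718). The sign differed between the forms, at 0.29 within hyphenated and -0.60 within plain names. Without PT-I-PpoI replicate 3 the log2 fold change was -1.01 ± 0.18 and passed (edgeR adjusted p = 0.0302). That fit had no name form term, and its hyphenated libraries were all wild type. Genotype and name form are therefore partly mixed in it.

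RefSeq lists 3 starts of Tsc22d3 (GRCm38.p6), and the counts, which are summed over the gene, do not tell which was used. The 250 bases before each start held no full palindromic glucocorticoid response element, searched as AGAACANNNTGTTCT on both strands. Of 32851 such windows in RefSeq 0.00913% held that sequence. Its absence from a window therefore carries little information. Bases elsewhere and elements of other sequence were not searched. The hexamer AGAACA, which makes up each arm of the element, was searched on both strands as well and occurred in 1 of the 3 Tsc22d3 windows and in 16.1% of all windows. The window with the match lies before the most distal start, at chrX:140600523-140600772 on the minus strand, and is shown because Tsc22d3 is the member that passed. Capitals mark the hexamer, read on the opposite strand as TGTTCT, and its first base lies 185 bases before the start.
Tsc22d3: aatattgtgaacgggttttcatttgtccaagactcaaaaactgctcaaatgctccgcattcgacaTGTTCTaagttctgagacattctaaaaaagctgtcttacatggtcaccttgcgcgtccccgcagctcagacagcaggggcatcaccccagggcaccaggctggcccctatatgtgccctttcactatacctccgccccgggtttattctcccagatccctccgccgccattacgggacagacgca

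Fkbp5 (chromosome 17, 28398753 to 28486149, minus strand, mm10) encodes an immunophilin that joins the Hsp90 complex of the receptor and lowers its affinity for hormone, so that its induction closes a feedback loop. It was at 156.8, 131.4 and 113.2 CPM with hyphenated and 80.8, 113.6 and 109.6 CPM with plain names, in the same library order as for Tsc22d3. The highest and the lowest level were again PT-I-PpoI replicates 3 and 1, while the forms overlapped through 113.2 and 113.6 CPM. The log2 difference between forms was 0.42 ± 0.15 (edgeR adjusted p = 0.177), at 0.71 within PT-I-PpoI and 0.16 within wild type. Between the genotypes the means were 117.1 ± 38.1 CPM in PT-I-PpoI libraries and 118.1 ± 11.7 CPM in wild type libraries (SD, n = 3 each). The log2 difference of -0.01 ± 0.21 (edgeR adjusted p = 0.986) combined 0.36 within hyphenated and -0.19 within plain names, and its sign turned under 5 of 15 alternatives. Bases beyond the 250 before its RefSeq start were not searched, and these 250 bases held neither the palindromic element nor the hexamer. They held the E-box CACGTG, which clock factors bind, once, 169 bases before the start, as did 6.02% of all windows at least once, and no window of Tsc22d3, Mt1 or Mt2 held it.

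Zbtb16 (chromosome 9, 48654297 to 48835945, minus strand, mm10) encodes PLZF, a zinc finger repressor that glucocorticoids and progestins induce. It was the member with the fewest reads, 98 to 277 per library. It was at 5.19, 10.4 and 11.98 CPM in PT-I-PpoI and at 13.3, 10.98 and 5.18 CPM in wild type, in replicate order. Each genotype held a library near 5 CPM, and the groups overlapped over almost the whole range. The log2 fold change was -0.11 ± 0.38 (edgeR adjusted p = 0.927), at 0.67 within hyphenated and -0.86 within plain names. Between the forms the log2 difference was -0.09 ± 0.38 (edgeR adjusted p = 0.921), at 0.71 within PT-I-PpoI and -0.82 within wild type. The interaction of 1.40 ± 0.60 did not pass (edgeR adjusted p = 0.342). Summed adipocyte markers (Adipoq, Plin1, Cfd, Cidec and Lep) were at 5.93, 18.9 and 34.9 CPM in PT-I-PpoI and at 56.1, 20.8 and 13.6 CPM in wild type, in the same replicate order, so that PT-I-PpoI replicate 1 had the lowest and wild type replicate 1 the highest sum. Their part in the level of Zbtb16 was not tested.

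**Figure D2:**
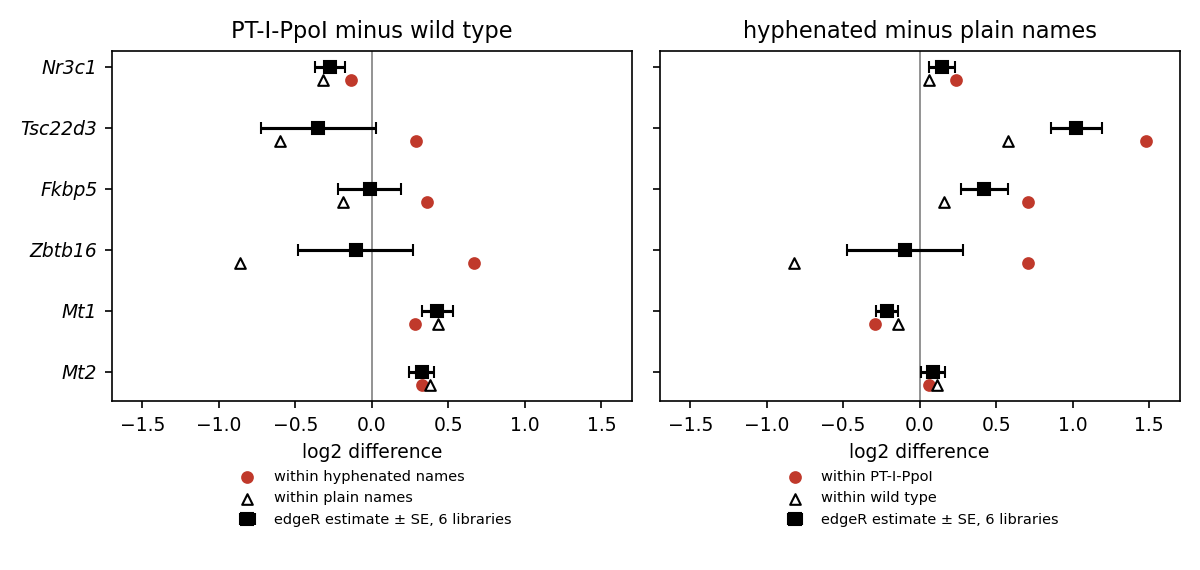
Log2 difference of each member (horizontal axes) for PT-I-PpoI minus wild type and for hyphenated minus plain library names, with squares for the edgeR estimate ± SE over 6 libraries and small symbols for differences of mean log2 CPM within each name form or genotype. Mt1 and Mt2 lay above 0 for PT-I-PpoI in both name forms, while Tsc22d3, Fkbp5 and Zbtb16 changed sign between the forms.

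Mt1 (chromosome 8, 94179089 to 94180327, plus strand, mm10) was the most abundant member per length. It was at 130.8, 126.2 and 105.1 CPM in PT-I-PpoI and at 95.5, 84.9 and 88.9 CPM in wild type, in replicate order. All 3 PT-I-PpoI libraries lay above all wild type libraries, and within PT-I-PpoI the hyphenated library was the lowest. The log2 fold change was 0.43 ± 0.10 (1.35-fold, edgeR adjusted p = 0.201), at 0.28 within hyphenated and 0.43 within plain names. Mt1 passed by DESeq2 (log2 fold change 0.42 ± 0.12, DESeq2 adjusted p = 0.0308) and by edgeR without PT-I-PpoI replicate 3 (0.52 ± 0.08, edgeR adjusted p = 0.02). The fit without that library had no name form term, and its hyphenated libraries were all wild type. With every library and the name form as a term the edgeR adjusted p of Mt1 was 0.0887. Between the forms Mt1 was at 92.9 ± 10.7 CPM with hyphenated and 117.5 ± 19.2 CPM with plain names (SD, n = 3 each), a log2 difference of -0.21 ± 0.07 (edgeR adjusted p = 0.149).

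Mt2 lies close to Mt1 (chromosome 8, 94172618 to 94173567, plus strand, mm10) and encodes the other main metallothionein of kidney and liver. It was at 48.8, 44.1 and 48.5 CPM in PT-I-PpoI and at 35.7, 39.9 and 37.3 CPM in wild type, in replicate order. The groups again did not overlap, and here the hyphenated PT-I-PpoI library stood among the plain ones. The log2 fold change was 0.33 ± 0.08 (1.25-fold, edgeR adjusted p = 0.21), at 0.33 within hyphenated and 0.38 within plain names. Mt2 did not pass under any of 15 alternatives, among which the lowest adjusted p was 0.0855. Between the forms the log2 difference was 0.09 ± 0.08 (edgeR adjusted p = 0.604). Because Mt1 and Mt2 have similar coding sequences and the counting set no option for reads that map to several places, both may be undercounted.

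Summed markers of the thick ascending limb were likewise higher with no overlap, at 6123 to 6310 CPM in PT-I-PpoI libraries and 4234 to 4741 CPM in wild type ones. So were those of the collecting duct, inner medulla and macrophages, although each macrophage marker overlapped when read singly. The part of all these markers in the metallothionein difference was not tested.

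**Figure D3:**
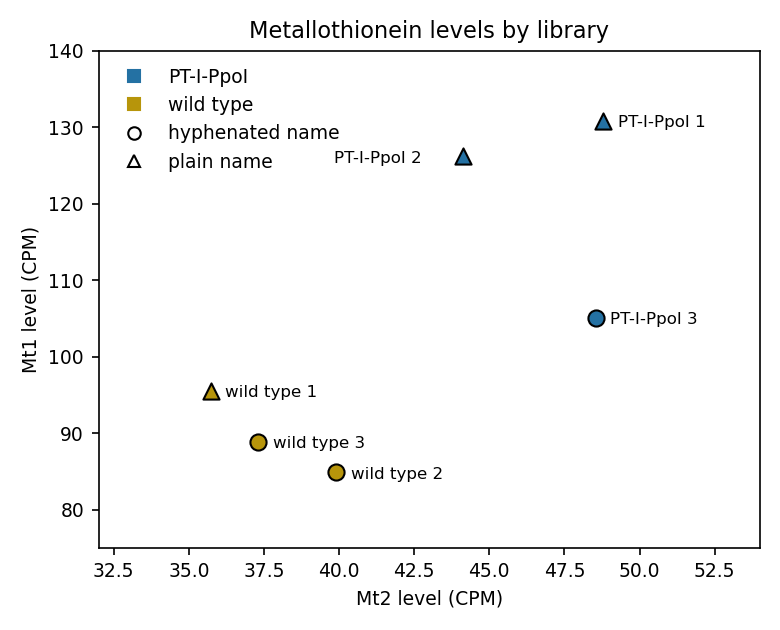
Mt1 level (vertical axis, CPM) against Mt2 level (horizontal axis, CPM) in the 6 libraries, coloured by genotype and shaped by name form, with axes that do not start at 0. The PT-I-PpoI libraries lie at or above 105.1 CPM of Mt1 and 44.1 CPM of Mt2, and the wild type libraries at or below 95.5 CPM of Mt1 and 39.9 CPM of Mt2.

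The 250 bases before the annotated RefSeq starts of Mt1 and Mt2 are shown because these neighbouring genes were both higher in PT-I-PpoI with no overlap. The core of the metal response element was searched as TGCACNC and TGCGCNC on both strands. Mt1 held 1 match, 23 bases before the start, and Mt2 held 3 matches, of which the first bases lie 223, 128 and 50 bases before the start, the last of them on the minus strand. Of 32851 RefSeq windows of that length, 21.4% held at least 1 match and 1.26% at least as many as Mt2. Bases after the annotated starts were not searched, so these counts hold for the windows alone and not for the whole promoters. Neither window held the palindromic glucocorticoid element or its hexamer. Capitals mark the metal response element cores in the windows at chr8:94178839-94179088 for Mt1 and chr8:94172368-94172617 for Mt2 (GRCm38.p6, plus strand).
Mt1: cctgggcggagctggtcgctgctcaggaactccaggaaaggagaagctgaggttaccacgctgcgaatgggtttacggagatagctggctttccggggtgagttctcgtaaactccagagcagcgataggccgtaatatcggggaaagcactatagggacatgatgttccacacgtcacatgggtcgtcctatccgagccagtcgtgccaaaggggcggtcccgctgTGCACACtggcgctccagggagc
Mt2: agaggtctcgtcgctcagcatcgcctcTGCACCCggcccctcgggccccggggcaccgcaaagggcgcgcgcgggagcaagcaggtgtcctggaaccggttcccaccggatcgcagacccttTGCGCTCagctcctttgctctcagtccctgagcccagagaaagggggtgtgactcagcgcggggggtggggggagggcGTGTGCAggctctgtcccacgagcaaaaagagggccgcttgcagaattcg

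Other genes that glucocorticoids are known to induce moved in both directions between the name forms. Of 29 listed targets 28 were tested, with a median log2 difference between the forms of 0.11 where the median of all genes was -0.01. Of the 28, 20 lay above 0, as did 6793 of all 13977 tested genes. At an unadjusted edgeR p under 0.05 there were 10 of the 28, against 18.8% of all tested genes. Levels did not overlap for 6 higher and 3 lower targets, beside 12.3% and 13.1% of all tested genes. Between the name forms 2 passed as higher and 3 as lower in hyphenated names, where 3.06% of all tested genes passed (1.77% higher, 1.29% lower). The largest of these differences was that of Pdk4, a kinase that turns off pyruvate oxidation and that fasting also induces, and it ran opposite to Tsc22d3. Pdk4 was at 40.5, 24.9 and 21.0 CPM with hyphenated and 212.2, 491.2 and 301.3 CPM with plain names (log2 difference -3.42 ± 0.30, edgeR adjusted p = 0.00102). Klf15, a transcription factor of amino acid metabolism, was at 155.0 ± 10.7 CPM with hyphenated and 109.7 ± 10.8 CPM with plain names (SD, n = 3 each; edgeR adjusted p = 0.027). Hif3a, a hypoxia factor subunit, was also higher (3.12 ± 1.23 CPM with hyphenated and 1.65 ± 0.28 CPM with plain names, edgeR adjusted p = 0.0471). Fam107a, a stress-induced actin-binding protein, was lower (93.98 ± 13.9 CPM with hyphenated and 134.5 ± 15.3 CPM with plain names, edgeR adjusted p = 0.0202), as was Fbxo32, a ubiquitin ligase subunit of muscle wasting (3.72 ± 0.97 CPM with hyphenated and 5.75 ± 1.27 CPM with plain names, edgeR adjusted p = 0.049).

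Between the genotypes 0 of the 28 targets passed, where 0.136% of all tested genes did. At an unadjusted edgeR p under 0.05 there were 5 of the 28, against 12% of all tested genes. The median log2 fold change was -0.05 (0.00 over all genes). The smallest p was that of Bcl6, a transcriptional repressor, at 39.9, 51.8 and 42.6 CPM in PT-I-PpoI and at 23.1, 17.6 and 27.7 CPM in wild type. All 3 PT-I-PpoI libraries were higher, with a log2 difference of 0.96 ± 0.16 that missed the threshold (edgeR adjusted p = 0.0808). Lpin1, a phosphatidate phosphatase, averaged 56.7 ± 9.85 CPM in PT-I-PpoI libraries and 78.97 ± 2.58 CPM in wild type libraries (SD, n = 3 each; edgeR adjusted p = 0.202).

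**Figure D4:**
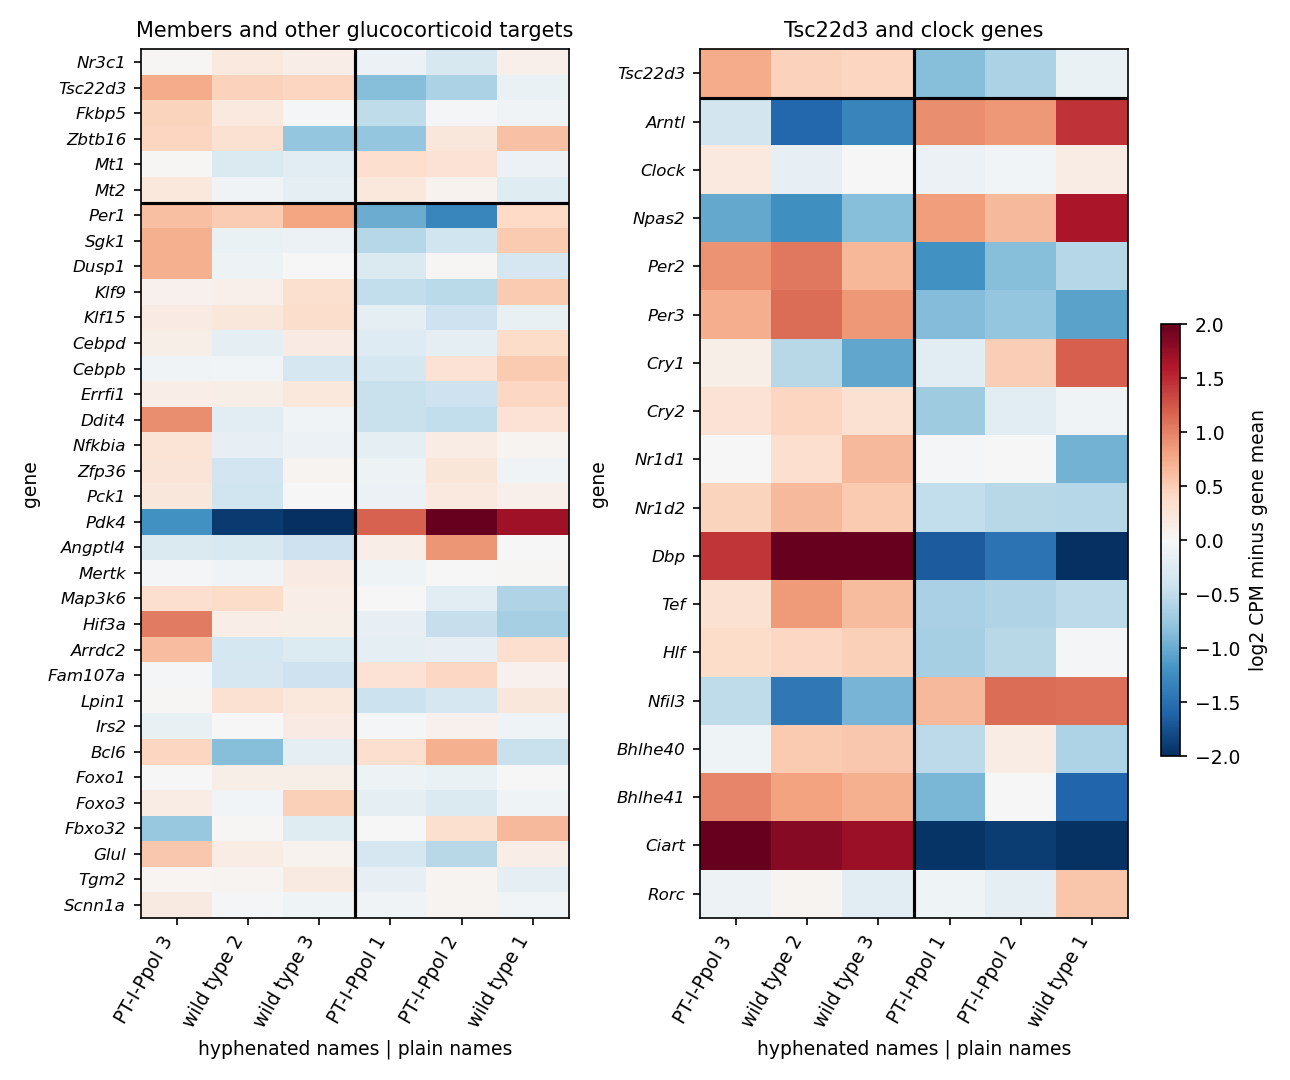
Log2 CPM minus the mean of each gene over the 6 libraries (colour, with values beyond 2 or -2 shown in the end colours) for the 6 members with 28 other glucocorticoid targets, and for Tsc22d3 with 17 clock genes, with hyphenated library names left of the vertical line. Tsc22d3 was higher in all libraries with hyphenated names, as were Dbp, Ciart, Per2 and Per3, while Pdk4, Npas2 and Nfil3 were lower.

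Genes of the receptor's machinery gave calls between the name forms alone, by edgeR. Of 20 listed enzymes, chaperones and cofactors 19 were tested, 0 passed between the genotypes (median log2 fold change -0.01) and 2 passed between the name forms, where 3.06% of all tested genes passed. These were Crebbp, a histone acetyltransferase and coactivator, at 13.8 ± 1.15 CPM with hyphenated and 9.17 ± 0.47 CPM with plain names (edgeR adjusted p = 0.0447), and Abcb1b, a drug exporter that also carries corticosteroids, at 12.7 ± 1.90 CPM with hyphenated and 22.7 ± 1.03 CPM with plain names (SD, n = 3 each; edgeR adjusted p = 0.0142). Hsd11b2, which inactivates corticosterone in the collecting duct and protects the mineralocorticoid receptor there, was at 229.1, 284.1 and 194.4 CPM in PT-I-PpoI and at 164.8, 172.0 and 154.0 CPM in wild type. Its groups did not overlap and it did not pass (log2 fold change 0.53 ± 0.13, edgeR adjusted p = 0.21).

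Genes of metal response and of zinc and copper transport gave no call between the genotypes. Of 31 listed genes 26 were tested, 0 passed, and the median log2 fold change was -0.10, with 9 of 26 above 0. The smallest p was that of Slc39a13, a zinc importer, at 50.1 ± 3.52 CPM in PT-I-PpoI and at 38.8 ± 2.93 CPM in wild type (SD, n = 3 each; log2 fold change 0.37 ± 0.09, edgeR adjusted p = 0.201). It was followed by Slc39a10, another zinc importer, at 16.6 ± 4.56 CPM in PT-I-PpoI and at 23.5 ± 2.15 CPM in wild type (edgeR adjusted p = 0.348). Between the name forms 2 of the 26 genes passed as higher and 0 as lower, where 3.06% of all tested genes passed (1.77% higher, 1.29% lower). Slc30a2, which moves zinc out of the cytosol, was at 108.7 ± 2.59 CPM with hyphenated and 71.0 ± 12.04 CPM with plain names (edgeR adjusted p = 0.015). Slc39a11, a zinc transporter, was at 44.7 ± 0.73 CPM with hyphenated and 31.2 ± 4.03 CPM with plain names (edgeR adjusted p = 0.0339).

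Circadian clock genes, a list read here because glucocorticoid release is rhythmic, were called in both directions between the name forms. Of 17 genes 8 were higher and 3 lower in hyphenated names, where 3.06% of all tested genes passed, and 0 passed between the genotypes. Dbp, an output factor of the clock, was at 61.7, 116.1 and 93.9 CPM with hyphenated and 7.25, 8.22 and 3.66 CPM with plain names (log2 difference 3.76 ± 0.33, edgeR adjusted p = 0.00095). Its exons overlap those of Sphk2, with which reads may be mixed. Ciart, a clock repressor, had a log2 difference of 4.03 ± 0.21, Per3 1.79 ± 0.15, Per2 1.68 ± 0.16, Tef 1.10 ± 0.10, Nr1d2 1.07 ± 0.08 and Hlf 0.73 ± 0.11. Lower in hyphenated names were Npas2, a partner of the activator Arntl, at -2.28 ± 0.20, and Nfil3, a repressor, at -1.84 ± 0.23. Arntl, which passed but was not among the genes named by smallest p, was lower too, at -2.10 ± 0.28. The edgeR adjusted p of these genes ran from 0.000228 for Ciart to 0.0112 for Hlf. The time of day at which tissue was taken is not given in the sources used here, and its part in the Tsc22d3 difference was not tested.

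Acute phase and injury genes, which can accompany metallothionein induction, gave 0 calls between the genotypes among 12 tested of 18 listed. Lcn2, an iron-binding injury marker, averaged 3.38 ± 1.03 CPM in PT-I-PpoI libraries and 1.90 ± 0.31 CPM in wild type libraries (log2 fold change 0.85 ± 0.28, edgeR adjusted p = 0.322). Hp, the haptoglobin gene, averaged 1.13 ± 0.51 CPM in PT-I-PpoI libraries and 3.97 ± 3.66 CPM in wild type libraries (edgeR adjusted p = 0.338), with 8.17 CPM in wild type replicate 3. Between the forms 2 of the 12 passed, both lower in hyphenated names, where 3.06% of all tested genes passed (1.29% lower). They were Cp (ceruloplasmin, a copper protein, log2 difference -0.83 ± 0.08, edgeR adjusted p = 0.0019) and Fgg (fibrinogen gamma chain, -0.97 ± 0.14, edgeR adjusted p = 0.0109). With the name form as a term Cp also passed between the genotypes (log2 difference 0.51 ± 0.08, edgeR adjusted p = 0.0452). The exons of Cp overlap those of Hps3.

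Markers of the adrenal cortex were near 0, with Cyp11b1 and Cyp11b2 at 0 in every library and a summed level, almost all from Star, of 4.47 to 6.51 CPM in PT-I-PpoI libraries and 4.58 to 5.68 CPM in wild type. By name form the sum did not overlap, at 4.47 to 4.69 CPM with hyphenated and 5.35 to 6.51 CPM with plain names. Its part in the Tsc22d3 difference was not tested.

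The profile most like that of Tsc22d3 over the 6 libraries, by the root mean square difference of centred log2 CPM among 12586 genes with a mean of at least 1 CPM, was that of Ppp1r16b, a regulatory subunit of protein phosphatase, at 0.109. It was at 115.7, 110.1 and 99.1 CPM with hyphenated and 45.1, 42.6 and 67.0 CPM with plain names. Next were Rd3, a regulator of guanylate cyclase in the retina, at 0.121 and Akr1c14, an aldo-keto reductase that acts on steroids, at 0.146. For Zbtb16 the closest were Tceal1 at 0.227, Disp1 at 0.248 and Scn7a at 0.26, more distant than those of Tsc22d3. Among the members themselves Mt1 and Mt2 were the closest pair at 0.161, and Tsc22d3 and Mt1 the most distant at 0.789. The other members spanned less than 1 on the log2 scale, and no gene was sought for them.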

How the data were processed

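RNA-seq was read in 6 libraries of mouse kidney cortex (3 PT-I-PpoI, 3 wild type). The authors deposited raw counts of read pairs per gene. Per the labels' protocols, a stranded mRNA kit was used and HISAT2 mapped the reads. Per the file headers, pairs were counted over exons with featureCounts 1.5.2, both mates required, with no strand option and no option for reads that map to several places. The header names a UCSC mm10 annotation and the labels' protocols name mm9. Positions of 99.34% of 23204 genes matched by symbol overlapped those in GRCm38.p6 (mm10), including all 6 members, so coordinates are given as mm10. The authors also deposited log2 values on the rlog scale, used for an alternative only. The submitters' processing notes name DESeq2.

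Counts were tested in R 4.3.3 with edgeR 4.0.16 (default expression filter with a minimum count of 10, TMM factors, quasi-likelihood test, two-sided, Benjamini-Hochberg adjustment over 13977 genes, threshold 0.05). Genotype was tested alone, and name form with genotype as a term. SE is the size of the coefficient divided by the root of F. The tests were checked on simulated counts. Those used for the genotype test held no name form difference, so the check does not cover a genotype test where one is present. Alternatives used DESeq2 1.42.0, limma 3.58.1, other factors, filters and terms, and left out each library in turn (for the interaction, the 4 libraries without which it can still be estimated). Levels are TMM-scaled CPM. Profiles were compared as log2 CPM (prior count 2).

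Members and gene lists were chosen with earlier results of these data known. Named were all members, list genes that passed (up to 8 a list) or, where none passed in a comparison, the 2 with the smallest p, and the 3 genes closest to a member that spans at least 1 on the log2 scale, leaving out predicted genes. One gene that this rule names is not reported here. Promoter windows are from RefSeq (GRCm38.p6), whose table matched 4 of the 6 members.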

Additional observations from a re-analysis of the deposited data

Results flagged for a closer look

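The difference of Tsc22d3 between hyphenated and plain library names was larger in PT-I-PpoI than in wild type, by 0.89 on the log2 scale (edgeR adjusted p = 0.0355 for the interaction term). A difference between groups brought it here, and it was looked for after the values had been seen. It rests on PT-I-PpoI replicate 3 and wild type replicate 1, which could not be left out. It passed under 9 of 11 alternatives, and not with limma on the rlog values (0.49, limma adjusted p = 0.109) or without wild type replicate 3 (0.88, edgeR adjusted p = 0.052).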

How the results depend on the processing

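Between the genotypes the counts of all genes called moved with the processing. Against 19 higher and 0 lower genes, edgeR's quasi-likelihood test called 44 higher and 3 lower with no filter and 49 higher and 15 lower when name form was a term, and DESeq2 called 133 higher and 61 lower. Leaving out 1 library gave 0 to 261 higher and 0 to 364 lower genes, the largest counts without PT-I-PpoI replicate 3. In that fit, which had no name form term, the hyphenated libraries were all wild type, so genotype and name form are partly mixed. Of the members 0 were called, against 1 (Mt1) by DESeq2 and 0 to 2 when a library was left out (Mt1 and Tsc22d3 without PT-I-PpoI replicate 3). Nr3c1, Tsc22d3, Mt1 and Mt2 kept their direction under 15 of 15 alternatives. Fkbp5 reversed with upper-quartile factors (log2 fold change 0.002) and with name form added (0.0933), and ran from -0.278 to 0.194 when a library was left out. Zbtb16 ran from -0.4222 to 0.2031 in that way. Between the name forms, against 248 higher and 180 lower genes, DESeq2 called 420 higher, and upper-quartile factors gave 184 higher and 218 lower. Leaving out 1 library gave 72 to 546 higher and 52 to 284 lower genes, and Tsc22d3 passed in each case, at log2 differences of 0.5865 (without PT-I-PpoI replicate 3) to 1.4742 (without wild type replicate 1). Zbtb16 ran from -0.7695 to 0.6269, and Mt2 reversed without the genotype term (-0.0344). For the interaction, added after the values were seen, 1 member passed, 0 with limma on the rlog values and 0 to 2 when 1 of 4 libraries was left out, the second being Fkbp5 without PT-I-PpoI replicate 2. The Mt2 interaction ran from -0.1155 to 0.0225 in the same way. The interaction cannot be estimated without PT-I-PpoI replicate 3, nor without replicate 1 of wild type, the libraries on which it rests. The cause of these changes was not tested. A library left out can leave a genotype and name form with 1 library, whose spread is taken from the others. Zbtb16 had the fewest reads, 98 to 277 a library.

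Same-numbered libraries correlated at 0.219, -0.128 and 0.163 in their deviations from the group means, so the numbers were not read as pairs, and not every library correlated best with its own number. With the replicate block the genotypes gave 33 higher and 7 lower genes. Only the libraries numbered 2 differ in name form, so with the block the name form estimate rests on that single pair. Between the name forms the replicate block gave 26 higher and 29 lower genes and 0 members in place of 1, with Tsc22d3 at a log2 difference of 0.89 (edgeR adjusted p = 0.557).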

Other observations

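The ratio of Mt1 to Mt2 reads within a library, which does not depend on the scaling of libraries, was 2.17, 2.13 and 2.38 in the libraries with hyphenated names (PT-I-PpoI replicate 3 with wild type replicates 2 and 3) and 2.68, 2.86 and 2.67 in those with plain names (PT-I-PpoI replicates 1 and 2 with wild type replicate 1). The ratios did not overlap between the forms and overlapped between the genotypes.

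Interaction terms above 0, read after the values were seen, were not particular to Tsc22d3 among glucocorticoid targets. They were 1.84 for Sgk1, 1.82 for Ddit4, 1.43 for Arrdc2, 1.01 for Glul, 0.91 for Klf9 and 0.80 for Errfi1. Other listed targets had terms below 0, such as Angptl4 at -0.48 and Map3k6 at -0.39. All rest on the same single libraries as that of Tsc22d3. Per1, a clock gene that glucocorticoids also induce, was chosen after its values were seen. It was at 61.7, 58.3 and 70.2 CPM with hyphenated and 20.6, 16.5 and 53.8 CPM with plain names, the last being wild type replicate 1 (log2 difference 0.96 ± 0.26, edgeR adjusted p = 0.095). The forms did not overlap. Within PT-I-PpoI the log2 difference was 1.74 and within wild type 0.25. The interaction term gave 1.47 ± 0.20 for PT-I-PpoI minus wild type (edgeR adjusted p = 0.0129, where 0.687% of all tested genes passed), and it rests on PT-I-PpoI replicate 3 and wild type replicate 1 as the single libraries of their genotype and name form.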
